A study of Macaca fascicularis with 23 samples.

Results

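Genes that mark neural progenitors and early neurons were followed in cynomolgus monkey (Cm) pluripotent stem cells (PSCs). The set was given by name: NES, TUBB2A, TUBB2B, UCHL1, SOX4, POU3F2, ZIC1, ZIC4 and CRABP2. Of these 9 names, 8 had a row among the 8415 genes analysed, and TUBB2B was not analysed here. Expression was measured by SC3-seq, a method that sequences the 3′ ends of amplified cDNA, and is given in RPM, mapped reads scaled to a library total of 1000000. There were 21 PSC libraries, from 3 embryonic stem cell (ESC) lines (CMK6, TRSK and CMK9) and 4 induced pluripotent stem cell (iPSC) lines (iPS-S12 and iPS-S6, iPS-L6 and iPS-L3), with 1 library for each line in each of 3 media. Primed cells were grown in bFGF/KSR medium. Naïve-like cells were grown in K5cLD medium, which contains 5 chemicals (Gö6983, forskolin, kenpaullone, CHIR99021 and SB590885), LIF and doxycycline (Dox). Differentiated cells were grown in K5c medium, which keeps the 5 chemicals but lacks LIF and Dox. By the methods, K5cLD also holds Neurobasal medium and the N2 and B27 supplements. The primed medium is not listed with these, and it has bFGF, which K5cLD is not listed with. In comparisons with primed cells these parts of the media and the other factors cannot be told apart. For conversion to the naïve-like state, PiggyBac vectors carrying Dox-inducible hKLF2 or hNANOG and an EOS-GFP/puroR reporter had been introduced, so the naïve-like cells and the differentiated cells made from them carried these transgenes. The labels do not say whether the primed libraries also did. The iPSC lines came from cultured liver (L) and stomach (S) cells of 1 Cm foetus by episomal vectors, and 1 library each of those somatic cells was also made. Before RNA was taken, PSCs of all lines were passaged on laminin without feeder cells. The 7 lines are the replicates of a medium, so p-values measure the spread between lines.

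These genes stand for successive steps of neural development. NES encodes nestin, an intermediate filament protein of neural stem and progenitor cells. ZIC1 and ZIC4 are zinc finger transcription factors of the early neural plate and dorsal neural tube, POU3F2 (BRN2) is a POU-domain factor that drives neurogenesis, and SOX4 is an HMG-box factor that acts as progenitors become neurons. TUBB2A encodes a β-tubulin that is abundant in neurons, and UCHL1 (PGP9.5) is a ubiquitin hydrolase used as a general neuronal marker. CRABP2 binds retinoic acid in the cytoplasm and carries it to its nuclear receptors, and retinoic acid is a patterning signal of the hindbrain and spinal cord. None of these genes is exclusive to the nervous system, and several are transcribed in PSCs.

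The libraries held 861000 to 7986000 reads (median 3004000), estimated from the smallest step between RPM values, and 4 of the PSC libraries had fewer than 1000000. A level of 3 reads, taken as the limit of detection, corresponded to 0.376 to 3.49 RPM; it covers counting error only. The library numbers in the deposited table run by medium. The labels do not say whether these numbers give an order of preparation. If they do, that order and the medium cannot be told apart. Genes with log2(RPM + 1) over 4 in 1 or more PSC libraries were counted as expressed, and there were 2776 of them. NES, TUBB2A, UCHL1, SOX4 and CRABP2 were above that level in all 21 PSC libraries. POU3F2 was above it in 1 library, ZIC1 in 4 and ZIC4 in 3, so these 3 genes entered the tests through the few libraries where they were highest. For POU3F2 and ZIC1 all of these were differentiated libraries, and for ZIC4 they were 2 differentiated libraries and 1 naïve-like library. The row named TUBB2A (gene ID 102114855) has no symbol of its own in a newer annotation. Since TUBB2A and TUBB2B are nearly identical, reads of one could have been counted for the other. In most libraries the TUBB2A value was not a whole multiple of 1 read, unlike nearly all values of the other genes of the set.

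**Figure D1:**
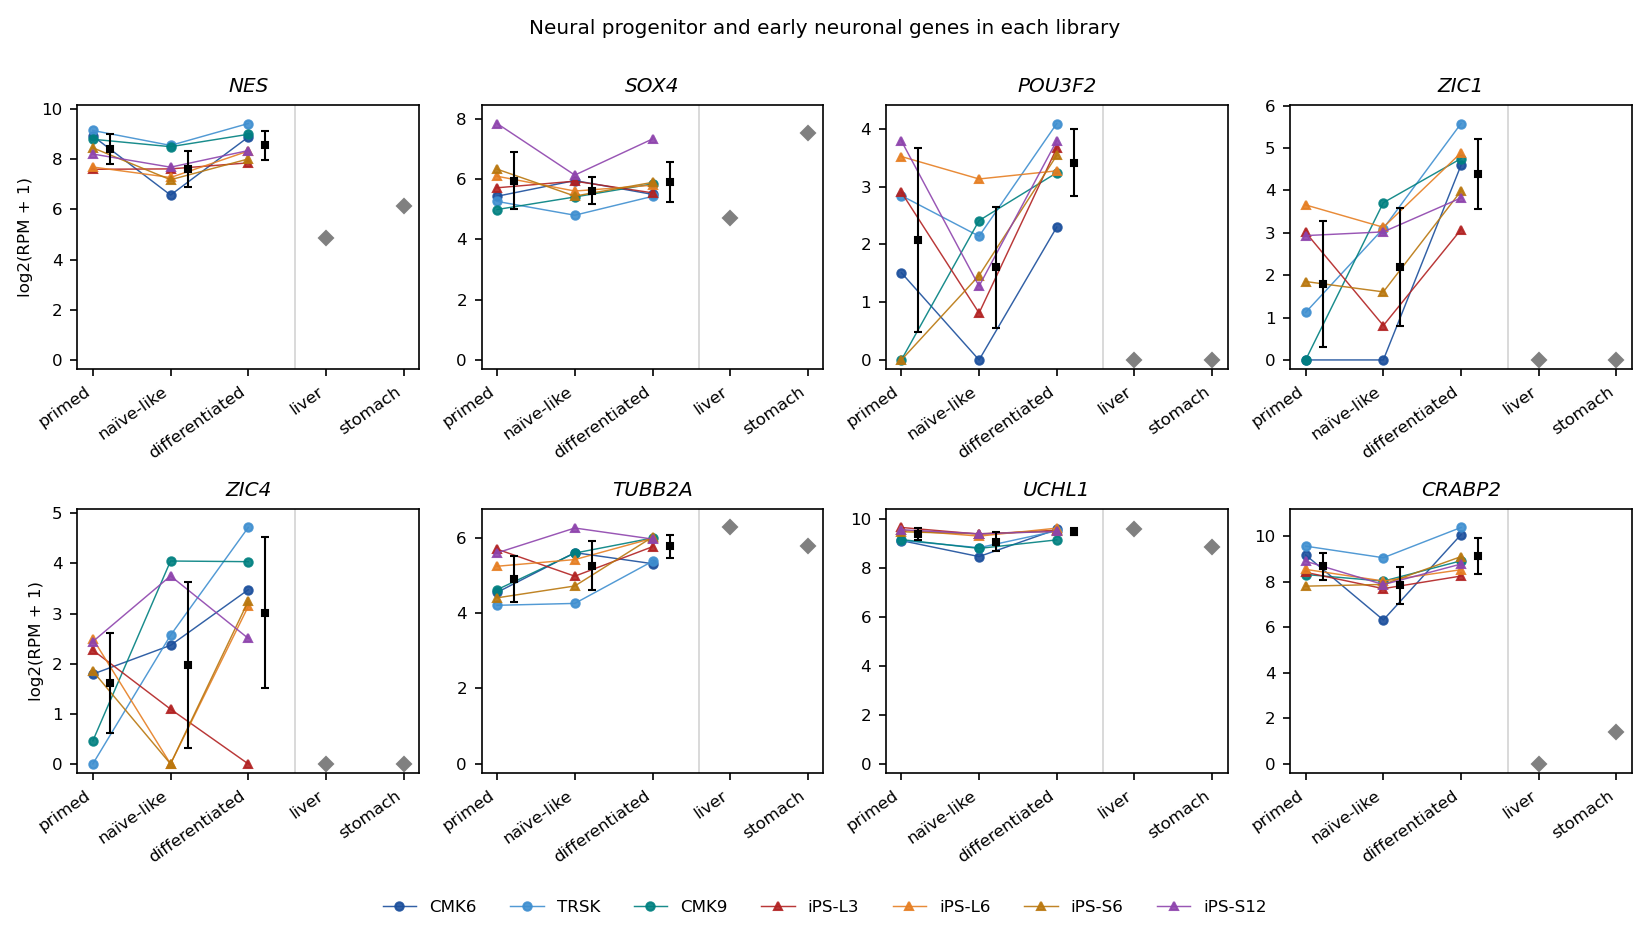
Level of each gene (y axis, log2(RPM + 1)) in primed, naïve-like and differentiated libraries and in the liver and stomach libraries (x axis). Coloured lines join the 3 libraries of a cell line (circles, ESC lines; triangles, iPSC lines), black squares and bars give the mean and SD of 7 lines, and grey diamonds are single somatic libraries; ZIC1 and POU3F2 lie highest in differentiated libraries, and the NES and CRABP2 lines of CMK6 dip in the naïve-like library.

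After withdrawal of LIF and Dox, NES, UCHL1 and CRABP2 rose: they were higher in differentiated than in naïve-like cells (limma adjusted p under 0.05), each in 7 of 7 lines. These are 3 of the 5 genes above the expression level in all PSC libraries, and none of the 5 fell. Among all 2776 expressed genes, 14.1% were called in this comparison, 6.41% higher and 7.71% lower, and 9.11% were higher in all 7 lines. The median log2 fold change of the 5 genes was 0.51, beside −0.02 for all expressed genes. POU3F2 and ZIC1 were also called higher, in 7 of 7 lines each, but differentiated libraries alone had brought them past the filter, so their calls do not add to that count. With no filter on low values CRABP2 alone was called (limma adjusted p = 0.0394), and the limma adjusted p was 0.0964 for NES, 0.104 for UCHL1, 0.0826 for POU3F2 and 0.0512 for ZIC1. The 5 calls depended on the lines in the fit. Without CMK6 none of the 8 genes passed and calls over all genes went from 392 to 219. Without iPS-L3, iPS-L6 or iPS-S12 3 genes passed, without CMK9 4, without TRSK 2, without iPS-S6 1, and without the naïve-like CMK6 library alone 2 (ZIC1 and CRABP2). A fit with a block for cell line called the same 5 genes, beside 9.22% of all genes higher.

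Conversion from primed to naïve-like culture left all 8 genes short of the threshold in the fit without a block, where 19.2% of expressed genes were called, 8.18% lower and 11.1% higher. At an unadjusted p under 0.05, NES, UCHL1 and CRABP2 were lower, where 915 of the 2776 expressed genes passed in either direction. Once the cell line was entered as a block, which pairs the libraries of a line, these 3 genes were called lower, beside 11.5% of all genes. The median log2 fold change of the 5 genes expressed in all PSC libraries was −0.34 (1 above 0 and 4 below), and that of all expressed genes was 0.06.

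Differentiated cells were higher than primed cells in 2 of the 8 genes, TUBB2A and ZIC1, each in 7 of 7 lines. Of all genes 13.4% were called, 6.27% higher and 7.13% lower, and 7.64% were higher in all 7 lines. The same 2 genes were called with the block, beside 11% of all genes. ZIC1 had passed the filter through differentiated libraries alone. Of the 5 genes expressed in all PSC libraries TUBB2A was the 1 called, and their median log2 fold change was 0.15 (4 above 0 and 1 below), beside 0.05 for all genes. With no filter the limma adjusted p was 0.0759 for TUBB2A and 0.0201 for ZIC1. Leaving out CMK6, CMK9, iPS-L6 or iPS-S6, or the 4 libraries under 1000000 reads, left only ZIC1. Each pair of these comparisons shares the libraries of 1 medium, so their results are not independent. In each comparison the ranges of the groups compared overlapped for all 8 genes.

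**Figure D2:**
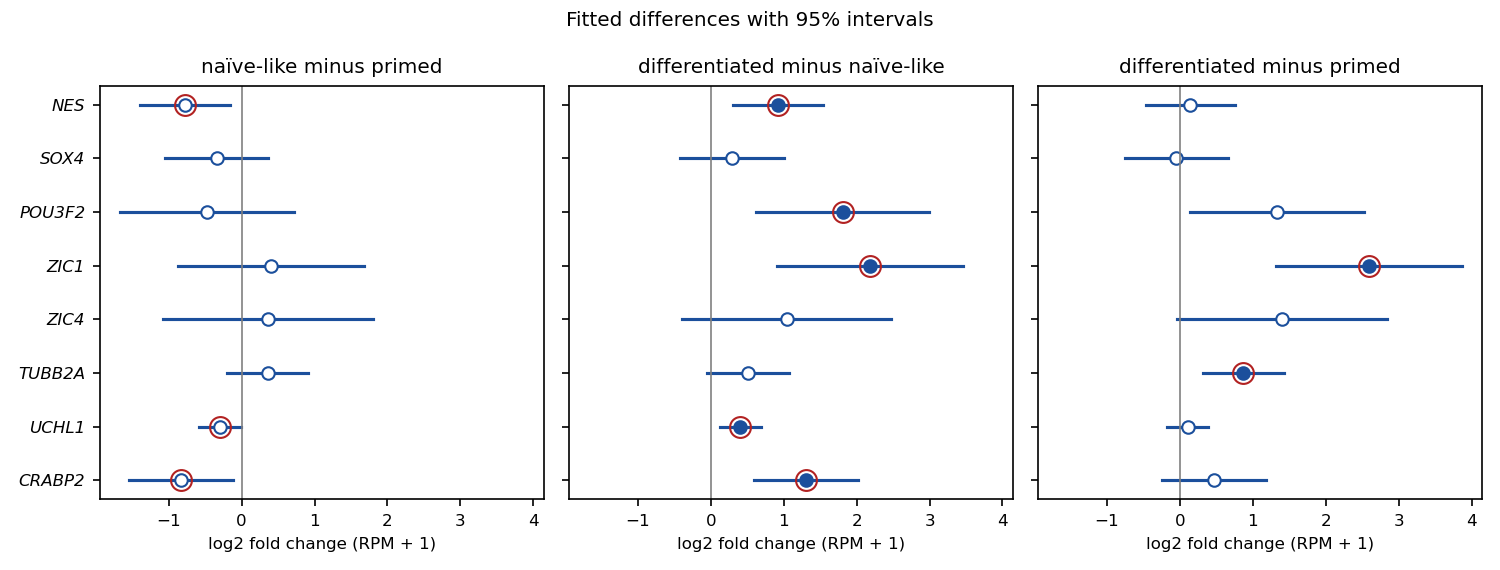
Fitted log2 fold change (x axis, on the log2(RPM + 1) scale) of each gene (y axis) in the 3 comparisons, with 95% intervals. Filled circles passed a limma adjusted p of 0.05, and red rings passed it with the cell line as a block; 5 genes are filled for differentiated minus naïve-like, 2 for differentiated minus primed and none for naïve-like minus primed.

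NES (nestin, gene ID 102136783) was read at high levels in all PSC libraries. Primed libraries ranged from 192 RPM in iPS-L3 to 563 RPM in TRSK with a median of 348 RPM. Naïve-like libraries ranged from 93.8 RPM in CMK6 to 372 RPM in TRSK (median 194 RPM), and differentiated libraries from 230 RPM in iPS-L3 to 682 RPM in TRSK (median 323 RPM). TRSK was thus highest in every medium, and the ranges overlapped. Within lines, differentiated minus naïve-like values ran from 0.24 in iPS-L3 to 2.31 in CMK6 on the log2(RPM + 1) scale, and the fitted change was 0.92 ± 0.30 (SE, n = 7 lines; limma adjusted p = 0.0403), a 1.90-fold rise. Without CMK6 it was 0.69 with a limma adjusted p of 0.177. The difference of naïve-like from primed cells was −0.78 ± 0.30 (limma adjusted p = 0.0702, and 0.00774 with the block), lower in 6 of 7 lines. Differentiated cells stood 0.15 ± 0.30 from primed cells (limma adjusted p = 0.795).

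The transcription factors differed from one another. SOX4 did not pass in any comparison. Its primed libraries ranged from 30.8 RPM in CMK9 to 229 RPM in iPS-S12 (median 51.5 RPM), its naïve-like libraries from 26.9 RPM in TRSK to 69.2 RPM in iPS-S12 (median 47.7 RPM), and its differentiated libraries from 42.1 RPM in TRSK to 160 RPM in iPS-S12 (median 54.6 RPM). iPS-S12 was highest in each medium. The differentiated minus naïve-like difference was 0.29 ± 0.34 (limma adjusted p = 0.65), and the differentiated minus primed difference was −0.05 ± 0.34 (limma adjusted p = 0.948), which turned to 0.27 without the primed iPS-S12 library.

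POU3F2 was low in all PSC libraries. It had 0 reads in primed CMK9 and iPS-S6 and reached 12.8 RPM in primed iPS-S12 (median 6.17 RPM). In naïve-like libraries it ran from 0 in CMK6 to 7.76 RPM in iPS-L6, with a median of 1.75 RPM. All 7 differentiated libraries had reads above the limit of 3, from 3.92 RPM in CMK6 (12 reads) to 16.0 RPM in TRSK, with a median of 10.6 RPM. The median was 6.06 times that of naïve-like libraries. The fitted rise over naïve-like cells was 1.81 ± 0.58 on the log2 scale (limma adjusted p = 0.0372), seen in 7 of 7 lines and smallest in iPS-L6 (0.14). The gene was tested because of 1 differentiated library (TRSK), and with no filter the limma adjusted p was 0.0826. Over primed cells it was 1.33 ± 0.58 (limma adjusted p = 0.127), with 6 of 7 lines higher.

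ZIC1 had the largest fitted changes of the 8 genes in the comparisons of differentiated cells. In primed libraries it had 0 reads in CMK6 and CMK9 and up to 11.6 RPM in iPS-L6, with a median of 2.61 RPM. In naïve-like libraries it ran from 0 in CMK6 to 12.1 RPM in CMK9 (median 7.12 RPM). In differentiated libraries it ran from 7.44 RPM in iPS-L3 to 46.8 RPM in TRSK (median 23.2 RPM), and each line had its highest ZIC1 level there. Differentiated cells exceeded naïve-like cells by 2.19 ± 0.62 (limma adjusted p = 0.0196) and primed cells by 2.59 ± 0.62 (limma adjusted p = 0.00613). The 4 libraries that brought it past the filter were all differentiated ones. With no filter the limma adjusted p was 0.0512 against naïve-like cells and 0.0201 against primed cells. The call against primed cells passed in 19 of 19 alternatives, with a limma adjusted p of 0.0347 at most. All of these but the fit with no filter kept the filter that differentiated libraries had passed. The tally therefore adds no separate support. Where the primed library had no reads, the rise was at least 25.1-fold in CMK6 and at least 69.1-fold in CMK9, set against 3 reads in that library. TRSK rose 39.8-fold over 1.18 RPM in its primed library.

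ZIC4 lies beside ZIC1 on chromosome 2 with 0 annotated protein-coding genes between them. It was less regular. Primed libraries had 0 to 4.65 RPM (median 2.61 RPM), naïve-like libraries 0 to 15.5 RPM (median 4.15 RPM) and differentiated libraries 0 to 25.3 RPM (median 8.49 RPM). Differentiated iPS-L3 had 0 reads at a depth of 941000 reads, where 3 reads are 3.19 RPM, so a level below that was not detectable. Differentiated minus naïve-like values were higher in 4 of 7 lines, and the fitted value was 1.04 ± 0.70 (limma adjusted p = 0.364). Against primed cells it was 1.40 ± 0.70 (limma adjusted p = 0.187), higher in 6 of 7 lines.

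TUBB2A, the β-tubulin gene, had a median of 23.6 RPM (17.4 to 50.7) in primed, 41.7 RPM (18.1 to 75.3) in naïve-like and 61.3 RPM (38.6 to 63.6) in differentiated libraries. The spread was smallest in differentiated libraries, with an SD of 0.31 on the log2 scale beside 0.60 in primed and 0.66 in naïve-like ones. The difference of differentiated from primed cells was 0.87 ± 0.27 (limma adjusted p = 0.034), a 1.83-fold rise that ran from 0.07 in iPS-L3 to 1.61 in iPS-S6. Without iPS-S6 the limma adjusted p was 0.118, and without CMK6, CMK9 or iPS-L6 it was 0.0614, 0.0968 and 0.0738. Without the 4 libraries under 1000000 reads it was 0.107. As said above, this row may also hold reads of TUBB2B. The comparisons with naïve-like cells did not pass (0.36 ± 0.27 from primed, limma adjusted p = 0.384; 0.51 ± 0.27 to differentiated, limma adjusted p = 0.228).

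UCHL1, the ubiquitin hydrolase, had narrow ranges. Primed libraries had 556 to 806 RPM (median 714 RPM), naïve-like libraries 353 to 675 RPM (median 631 RPM) and differentiated libraries 567 to 791 RPM (median 732 RPM). Each of the 7 lines had its lowest UCHL1 level in the naïve-like library, although the ranges of the media overlapped. The rise from naïve-like to differentiated was 0.41 ± 0.14 (limma adjusted p = 0.049), or 1.32-fold, from 0.09 in iPS-S12 to 1.11 in CMK6. This call was close to the threshold and held in 7 of 20 alternatives, with a limma adjusted p of 0.185 without CMK6. The naïve-like minus primed difference was −0.30 ± 0.14 (limma adjusted p = 0.134, and 0.0311 with the block). Of all expressed genes, 6.3% were likewise lower in all 7 naïve-like lines.

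CRABP2, the retinoic acid carrier, rose after withdrawal in most fits. Primed libraries ran from 221 RPM in iPS-S6 to 751 RPM in TRSK (median 370 RPM), naïve-like libraries from 78.6 RPM in CMK6 to 527 RPM in TRSK (median 234 RPM), and differentiated libraries from 302 RPM in iPS-L3 to 1325 RPM in TRSK (median 480 RPM). Differentiated TRSK and CMK6 (1067 RPM) held the highest levels of all libraries. The rise from naïve-like to differentiated was 1.31 ± 0.34 (limma adjusted p = 0.0131), or 2.47-fold, and ran from 0.50 in iPS-L6 to 3.75 in CMK6. It passed in 19 of 20 alternatives, the exception being the fit without CMK6 (0.90, limma adjusted p = 0.0797). Naïve-like cells differed from primed cells by −0.83 ± 0.34 (limma adjusted p = 0.0942, and 0.0352 with the block), and differentiated cells from primed cells by 0.47 ± 0.34 (limma adjusted p = 0.386).

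Among other genes of retinoic acid transport, metabolism and response, RXRB, a nuclear receptor partner of the retinoic acid receptors, moved by 0.07 ± 0.26 after withdrawal (limma adjusted p = 0.90). The receptor gene RARB had medians of 1.33, 1.51 and 2.66 RPM in primed, naïve-like and differentiated libraries and was not among the expressed genes.

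Other neural genes showed a part of this pattern. Of 47 early neuronal genes listed, 10 were analysed and 6 were expressed. After withdrawal, in the fit without a block, 3 of the 6 were called higher and none lower, beside 6.41% and 7.71% of all expressed genes. TAGLN3, a neuronal calponin-family protein, rose by 2.05 ± 0.43 (limma adjusted p = 0.00205) from a median of 1.14 to 7.43 RPM. It passed the filter through 1 differentiated library alone, so its call does not add to that count. With no filter the limma adjusted p was 0.00258. MLLT11, which is abundant in developing neurons, rose by 0.79 ± 0.25 (limma adjusted p = 0.0368, and 0.0884 with no filter), and MARCKSL1, an actin-regulating protein of the developing brain, rose by 0.44 ± 0.08 (limma adjusted p = 0.000587). MARCKSL1 had fallen by 0.44 on the log2 scale from primed to naïve-like cells (limma adjusted p = 0.000548). GAP43, a growth cone protein, went the other way after withdrawal (−1.20 ± 0.44, limma adjusted p = 0.0681, and 0.00895 with the block), with 7 of 7 lines lower. STMN1 and CRMP1 moved by −0.01 and 0.15. In differentiated over primed cells TAGLN3 alone of the 6 was called (1.93 ± 0.43, limma adjusted p = 0.00343). The median log2 fold change of the 6 genes after withdrawal, TAGLN3 included, was 0.29, beside −0.02 for all expressed genes.

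Of 39 neural progenitor genes listed, 9 were analysed and 5 were expressed. POU3F1, a POU-domain relative of POU3F2, rose after withdrawal by 2.14 ± 0.52 (limma adjusted p = 0.00692), in 7 of 7 lines, from a median of 1.07 to 7.83 RPM. It passed the filter through 2 differentiated libraries alone, and with no filter the limma adjusted p was 0.0173. HESX1, a homeobox gene of the anterior neural plate that is also expressed in PSCs, fell by 4.97 on the log2 scale (limma adjusted p = 2.27e-08) after it had risen by 2.31 ± 0.42 (limma adjusted p = 0.000605) on conversion, and it was lower in differentiated than in primed cells (−2.66 ± 0.42, limma adjusted p = 0.000151). PROM1 rose on conversion by 0.94 ± 0.30 (limma adjusted p = 0.0297, and 0.0696 with no filter) and did not pass after withdrawal (−0.33 ± 0.30, limma adjusted p = 0.53). SOX2, shared by PSCs and neural progenitors, stayed at medians of 449, 470 and 471 RPM and differed by 0.09 ± 0.25 after withdrawal (limma adjusted p = 0.859). FABP7, a radial glia gene, varied widely between lines, from 0 to 98.9 RPM in differentiated libraries (0.61 ± 1.02 after withdrawal, limma adjusted p = 0.763). The homeobox genes BARHL2, DMBX1 and EN2 and the Notch target HES5 did not exceed 1.66 RPM in any PSC library. Among tubulins, TUBB stayed between 1493 and 2670 RPM in the PSC libraries and passed in no comparison (0.05 ± 0.11 after withdrawal, limma adjusted p = 0.818).

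In bulk libraries, more cells of a type and more RNA per cell cannot be told apart, and markers of other cell types are given for that reason. Of 14 mesenchymal markers 3 were analysed and expressed (COL1A2, S100A4 and PRRX1). Their summed level was 39.5 to 594 RPM in primed, 7.55 to 123 RPM in naïve-like and 8.5 to 258 RPM in differentiated libraries, highest in primed TRSK. COL1A2 was 1.17 ± 0.84 higher in differentiated than in naïve-like cells (limma adjusted p = 0.41, and 0.012 with the block), in 7 of 7 lines, the direction of NES and CRABP2. The other markers did not share this rise. S100A4 went the other way (−1.24 ± 0.82, limma adjusted p = 0.36), with 6 of 7 lines lower. PRRX1 moved by 0.31 ± 0.72 (limma adjusted p = 0.835), with 2 lines higher and 0 lower. From primed to naïve-like cells COL1A2 was −1.92 ± 0.84 (limma adjusted p = 0.115, and 0.000308 with the block). The liver and stomach libraries had 4832 and 4506 RPM of COL1A2, with NES at 28.2 and 69.4 RPM and CRABP2 at 0 and 1.62 RPM, all below the lowest PSC library. S100A4 was lower in differentiated than in primed cells (−2.87 ± 0.82, limma adjusted p = 0.0204, and 0.0609 with no filter).

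Of 14 neural crest markers 6 were analysed and 4 expressed (FOXD3, TWIST1, TFAP2A and MSX1), and none passed without the block. Summed over the 6, they reached 10.8 to 59.3 RPM in primed, 36.3 to 74.8 RPM in naïve-like and 24.4 to 57.4 RPM in differentiated libraries. TWIST1 was above the expression level in naïve-like libraries alone, and TFAP2A in 1 differentiated library alone. With the block TWIST1 was lower after withdrawal (−1.81 ± 0.65 and limma adjusted p = 0.0667 without the block, 0.0201 with it). TFAP2A was higher in differentiated than in primed cells with the block (1.10 ± 0.59 and limma adjusted p = 0.223 without it, 0.0412 with it). Of 16 oligodendrocyte markers 4 were analysed and none was expressed. OLIG1 and OLIG2 were listed at 0 in all PSC libraries, and the sum of the 4 was at most 6.2 RPM. Of 19 mesoderm and endoderm markers 3 were analysed, with a summed level of 3.08 to 25.6 RPM in primed, 1.73 to 8.69 RPM in naïve-like and 0 to 6.38 RPM in differentiated libraries. EOMES, the member of that list that was expressed, passed the filter through 2 primed libraries alone and was lower in differentiated than in primed cells (−3.01 ± 0.54, limma adjusted p = 0.000542), and lower in naïve-like than in primed cells with the block (−1.53 ± 0.54 and limma adjusted p = 0.0505 without it, 0.0372 with it). Of 14 liver markers 3 were analysed and 1, AFP, was expressed. AFP had medians of 45.3, 9.44 and 29.8 RPM in primed, naïve-like and differentiated libraries, reached 150.5 RPM in a differentiated library, and was 1.71 ± 0.86 higher after withdrawal (limma adjusted p = 0.204, and 0.0676 with the block). Of 14 stomach markers 5 were analysed, and SOX2, the expressed one, passed in no comparison. Among 15 pluripotency genes 8 were analysed and all 8 were expressed. After withdrawal 5 of the 8 fell, POU5F1 (−4.14 ± 0.54, limma adjusted p = 1.25e-05), CRIPTO, HESX1, DPPA4 and L1TD1, beside 7.71% of all expressed genes called lower. On conversion CRIPTO and HESX1 rose, beside 11.1% of all genes called higher. With the block LIN28A was also called higher on conversion (0.62 ± 0.22 and limma adjusted p = 0.0536 without it, 0.00498 with it). With the block LIN28A was called higher in differentiated than in primed cells too (0.44 ± 0.22 and limma adjusted p = 0.197 without it, 0.0407 with it). The part of these other genes in the results on the neural genes was not tested.

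ESC and iPSC lines were set side by side for each response. The difference between 3 ESC and 4 iPSC lines in the response to conversion, to withdrawal, or in differentiated against primed cells was called for 0 of the 8 genes and for 0% of all genes by limma. With the block 0%, 0% and 0.144% of all genes were called and again 0 of the 8. At an unadjusted p under 0.05 there were 133, 109 and 262 genes, and the contrast of differentiated with primed cells was added after the data had been seen. The largest differences were in the ZIC genes, which entered the tests mostly through libraries of ESC lines. ZIC4 passed the filter through naïve-like CMK9 and differentiated CMK9 and TRSK, all of them ESC libraries. ZIC1 passed it through differentiated CMK6, TRSK, CMK9 and iPS-L6. Their differences between the classes therefore add no separate support. Primed libraries had 0 reads of ZIC1 in CMK6 and CMK9 and 4 in TRSK. In ZIC1, differentiated minus primed values were 4.46 to 4.75 in the ESC lines and 0.07 to 2.14 in the iPSC lines, a difference of 3.52 ± 1.03 (limma adjusted p = 0.40, and 0.0899 with the block). In ZIC4 the same values were 1.68 to 4.72 in ESC lines and −2.27 to 1.40 in iPSC lines, a difference of 3.37 ± 1.17 (limma adjusted p = 0.401). On conversion ZIC4 differed by 3.30 ± 1.17 between the classes (limma adjusted p = 0.91) and ZIC1 by 2.62 ± 1.03 (limma adjusted p = 0.942). SOX4 was higher in differentiated than in primed cells in 3 of 3 ESC lines (0.06 to 0.85) and lower in 4 of 4 iPSC lines (−0.51 to −0.17), and the difference was 0.71 ± 0.59 (limma adjusted p = 0.748). After withdrawal the rise of UCHL1 was 0.35 to 1.11 in ESC lines and 0.09 to 0.33 in iPSC lines (0.54 ± 0.16, limma adjusted p = 0.999), and that of CRABP2 was 0.89 to 3.75 in ESC lines and 0.50 to 1.22 in iPSC lines (1.20 ± 0.63, limma adjusted p = 0.999).

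**Figure D3:**
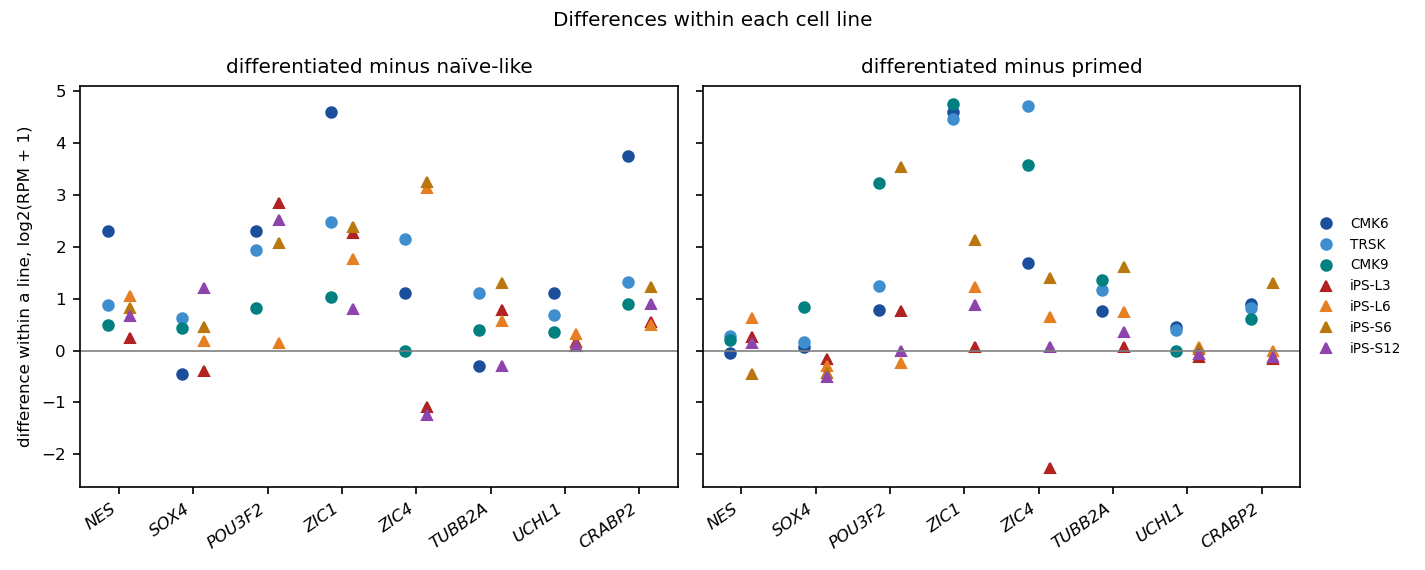
Difference within each cell line (y axis, log2(RPM + 1)) for each gene (x axis), for differentiated minus naïve-like (left) and differentiated minus primed (right). Circles are the 3 ESC lines and triangles the 4 iPSC lines; for ZIC1 in the right panel the ESC lines lie at 4.46 to 4.75 and the iPSC lines at 0.07 to 2.14, and for SOX4 they lie on opposite sides of 0. ZIC1 passed the expression filter through differentiated libraries of all 3 ESC lines and of iPS-L6, and ZIC4 through ESC libraries alone.

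The levels behind these responses separated the classes mainly in primed culture. In primed libraries the ranges of ESC and iPSC lines did not overlap for 5 of the 8 genes, where 12.4% of all expressed genes did not overlap. NES was higher in ESC lines (441 to 563 RPM) than in iPSC lines (192 to 348 RPM). UCHL1 was lower in ESC lines (556 to 572 RPM) than in iPSC lines (714 to 806 RPM), and so was SOX4 (30.8 to 42.2 RPM and 51.5 to 229 RPM). ZIC1 had 0 to 1.18 RPM in ESC lines and 2.61 to 11.6 RPM in iPSC lines, and ZIC4 0 to 2.46 RPM and 2.61 to 4.65 RPM, within a few reads of each other. In naïve-like libraries UCHL1 alone of the 8 genes did not overlap (353 to 454 RPM in ESC lines, 631 to 675 RPM in iPSC lines), beside 11.6% of all genes. In differentiated libraries NES (468 to 682 RPM in ESC lines, 230 to 323 RPM in iPSC lines) and ZIC4 (10.1 to 25.3 RPM, 0 to 8.49 RPM) were higher in ESC lines without overlap, beside 11.5% of all genes. ZIC4 had passed the filter through ESC libraries alone, so it does not add to that count. These counts were made after the data had been seen and no test was run on them. The 4 iPSC lines share 1 donor, so the class and the donor cannot be told apart.

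How much of the variation lay between media and how much between lines differed from gene to gene. Over the 21 libraries, the medium accounted for 48.5% of the sum of squares of ZIC1 and the line for 19.1%. In CRABP2 the medium took 38.7% and the line 29.7%, and in POU3F2 34.1% and 29.9%. The order was the reverse in NES (32.5% medium, 45.1% line), UCHL1 (31.5% and 45.7%) and TUBB2A (33.3% and 40.0%). In SOX4 the line took 70.6% and the medium 4.93%. ZIC4 was left with 65.0% that neither the medium nor the line accounted for.

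Members were also compared with one another and with other genes by the Pearson correlation of log2(RPM + 1) over the 21 PSC libraries, which share media and lines, so these values are descriptions. NES and CRABP2, which lie on chromosome 1 with 0 annotated protein-coding genes between them, had r = 0.805, and 0.713 once the mean of each medium was removed. POU3F2 and ZIC1 had r = 0.755 (0.654 with the means removed), and ZIC1 and ZIC4 r = 0.646 (0.55). NES and TUBB2A had r = −0.521 with the means removed. The genes most like NES were DDR1 (0.878), CRABP2 and GTF3C6 (0.778). Those most like CRABP2 were SYT11 (0.85), EPHA7 (0.826) and THBS3 (0.818), and those most like ZIC1 were TAGLN3 (0.879), CD47 (0.849) and PFN2 (0.807). Among the genes most like POU3F2 were ZIC1 and BACH2 (0.75), and ZIC4 was most like LOC102127449 (0.763), IGF2R (0.756) and ADAMTS9 (0.728). SOX4 was most like PKIB (0.793), CCDC50 (0.778) and SMAP2 (0.772), UCHL1 most like PTTG1IP (0.86), NRCAM (0.844) and LOC102128416 (0.839), and TUBB2A most like STX18 (0.753), TMEM120A (0.733) and LRRC4 (0.728).

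**Figure D4:**
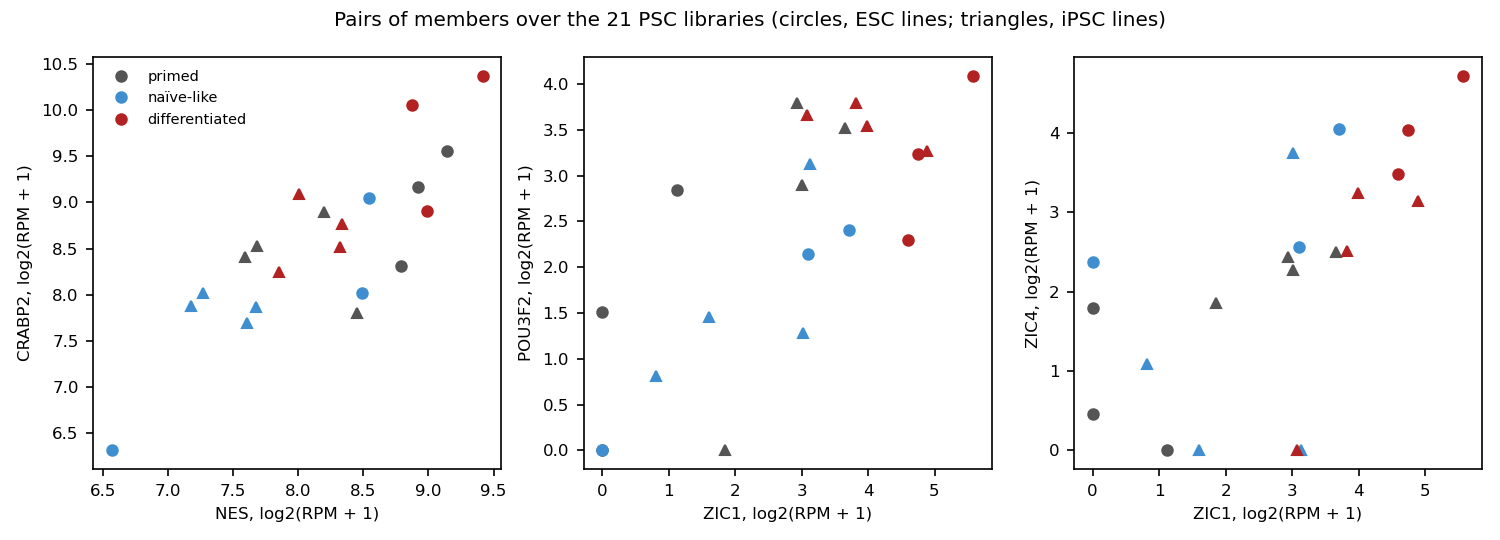
Levels of NES against CRABP2, ZIC1 against POU3F2 and ZIC1 against ZIC4 (log2(RPM + 1) on each axis), with 1 point per PSC library coloured by medium. In the left panel naïve-like CMK6 lies apart at the low end (93.8 RPM of NES and 78.6 RPM of CRABP2), and in the other panels libraries without reads lie on the axes at 0.

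The somatic libraries, 1 each with no replicate, differed between the genes. CRABP2, POU3F2, ZIC1 and ZIC4 were listed at 0 in liver cells, where 3 reads are 1.76 RPM, and POU3F2, ZIC1 and ZIC4 were also at 0 in stomach cells, where 3 reads are 0.973 RPM. CRABP2 had 1.62 RPM in stomach cells (5 reads), and its lowest PSC library was at least 44.6-fold above the liver library. NES was lower in liver (28.2 RPM) and stomach (69.4 RPM) than in any PSC library. By contrast TUBB2A had 76.1 RPM in liver cells, above all PSC libraries, and 54.0 RPM in stomach cells. UCHL1 had 779 and 457 RPM, and SOX4 25.2 and 186 RPM, the liver value below and the stomach value within the PSC range. As for the labels, ALB, AFP and APOA2 were listed at 0 in the liver library, which had 5565 RPM of mesenchymal markers, and in the stomach library the epithelial genes CLDN18 (188 RPM), TFF2 (166 RPM) and TFF1 (89.5 RPM) were read beside 5117 RPM of mesenchymal markers. The liver label was thus not borne out by these 3 hepatocyte markers.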

How the data were processed

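The authors made SC3-seq libraries from total RNA (1 ng each) and read 75 bp from 1 end. Per the labels, reads were processed with cutadapt 1.3, TopHat 1.4.1 and Cufflinks 2.2.0, and the methods give the library type as unstranded, so reads from opposite strands cannot be told apart. The authors deposited RPM, in which the mapped reads of a library sum to 1000000, with 1 column per library and no pooling. The 8415 genes analysed hold 24.9% to 27.5% of each library's RPM; 1 incomplete row was left out. In a library 88.0% to 94.3% of values were whole multiples of the step of 1 read (within 0.02 reads), too few for a test on counts. At a depth of 861000 reads 3 reads are 3.49 RPM, and at 7986000 reads they are 0.376 RPM. The deposited table names the build macFas5, and no annotation of it was used here, so no coordinates are printed; gene neighbours come from a newer RefSeq annotation, by gene ID. Where 2 rows shared a symbol in that annotation, the row with the symbol in the deposited table was used.

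Libraries were grouped by medium from their labels. Values were taken as log2(RPM + 1), where the pseudocount of 1 understates changes of low genes. The 2776 genes above 4 in at least 1 PSC library were fitted with limma 3.58.1 in R 4.3.3 (mean-variance trend, 3 media of 21 libraries in 1 fit), with Benjamini-Hochberg adjustment over all of them and a threshold of 0.05; the script was tested on simulated data. Differences between ESC and iPSC lines were contrasts of the same kind. Whether the lines pair the libraries was checked: by the labels the same line was grown in all 3 media, and deviations from the media means correlated at 0.03 to 0.56 (mean 0.27) in the 21 same-line pairs, against a mean of −0.04 in 126 other pairs. The fit without a block ignores this pairing, and the fit with the block takes it into account. Values with the line as a block are given where they change a call of a member or listed gene named here.

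All 9 given genes were to be named, with the 3 most correlated genes of each and, from each list of related genes or cell type markers, those past the threshold, up to 5 per list and comparison; other genes named are measured members of these lists. The members and lists were chosen with earlier results of these data known. Alternatives were other pseudocounts, filters and scalings, no trend, the block, fits of 2 media, and leaving out each line or libraries of low depth. Tables and figures were made with Python 3.11.15, pandas 2.3.3, numpy 2.4.6 and matplotlib 3.10.9. Liver and stomach values have no test. Results that need items withheld for evaluation are not reported here.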

Additional observations from a re-analysis of the deposited data

Results flagged for a closer look

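UCHL1 in differentiated cells of CMK9 (567 RPM) lay below the other 6 differentiated libraries (720 to 791 RPM), with a gap of 0.717 of the range of the group on the log2(RPM + 1) scale. SOX4 in differentiated cells of iPS-S12 (160 RPM) lay above the other 6 (42.1 to 58.4 RPM), with a gap of 0.757 on that scale. Both gaps exceed Dixon's 95% critical value for 7 libraries. Of 24 groups tested chance would pass about 1.2, and 2 passed. In primed cells iPS-S12 also held the highest SOX4 level (229 RPM).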

How the results depend on the processing

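Calls for the 8 genes were few and often close to the threshold. Naïve-like against primed cells: 0 genes were called, 3 with the replicate block by cell line, and 1 (NES) with that block without the 4 libraries under 1000000 reads; leaving out each line gave 0 to 1, and 302 to 527 of all genes. Differentiated against naïve-like cells: 5 genes were called, 2 with a pseudocount of 0.1, 1 without a filter, 3 with a filter of 7 libraries (which drops POU3F2, ZIC1 and ZIC4 from the test), 3 without the trend, 2 without the naïve-like CMK6 library and 3 without the 4 libraries of low depth; leaving out each line gave 0 to 4, and 219 to 342 of all genes. Differentiated against primed cells: 2 genes were called, and 1 each without a filter, with the filter of 7 libraries, without the 4 libraries of low depth, and with the block without them; leaving out each line gave 1 to 2, and 241 to 392 of all genes. There the block called 585 of all genes, 218 were called without the 4 libraries and 226 with the block without them. The difference of that response between ESC and iPSC lines was called for 4 genes with the block and for 0 to 4 when each line was left out. Apart from the smaller sets of genes or libraries tested, the cause of these shifts was not tested.

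Directions turned only for values that were not called. SOX4 in differentiated against primed cells was 0.267 without the primed iPS-S12 library, 0.0499 without the 4 libraries, 0.137 with the block without them, and −0.198 to 0.0292 when each line was left out. Leaving out each line, naïve-like against primed values ran from −0.151 to 0.834 for ZIC1 and from −0.179 to 0.835 for ZIC4. The ESC minus iPSC difference on conversion ran from −0.923 to 0.103 for NES, from −0.223 to 1.74 for POU3F2 and from −1.14 to 0.143 for CRABP2. After withdrawal it ran from −0.0129 to 0.894 for NES, from −0.534 to 0.171 for TUBB2A, from −0.415 to 0.165 for SOX4, from −0.791 to 0.226 for POU3F2, from −0.0419 to 1.74 for ZIC1 and from −0.683 to 0.815 for ZIC4. In differentiated against primed cells it ran from −0.199 to 0.161 for NES. The sum of TUBB2A and TUBB2B was not run, since TUBB2B was not analysed here. The fits that leave out the naïve-like CMK6 library, the primed iPS-S12 library or the libraries of low depth were chosen after seeing the data. At these depths POU3F2, ZIC1 and ZIC4 rest on few reads in primed and naïve-like libraries.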
